A study of Mus musculus with 12 samples.

Results

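The genes described here are 10 genes of the NRF2 antioxidant response, taken by name as a list: *Nfe2l2*, *Keap1*, *Nqo1*, *Hmox1*, *Gclc*, *Gclm*, *Slc7a11*, *Txnrd1*, *Srxn1* and *G6pdx*. All 10 were found, each with 1 Ensembl identifier, among the 55401 genes of the deposited tables. Whole-kidney RNA from 12 male C57BL6 mice aged 8 weeks was sequenced, 1 library per mouse. 6 mice had received a single intraperitoneal injection of the vehicle, 15% 2-Hydroxypropyl-beta-cyclodextrin, and 6 had received SK-124, a small-molecule inhibitor selective for the salt-inducible kinases SIK2 and SIK3, at 40 mg/kg by the same route. The labels name no genetic modification in either group. The study names no separate time between injection and kidney collection for these libraries, and no other dose or time was sequenced, so each value is a single point of a possible time course. The comparison addresses which kidney transcripts differ after acute SIK inhibition.

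NRF2, the protein encoded by *Nfe2l2*, is a transcription factor that is held at a low level by KEAP1, an adaptor that presents it to the CUL3 ubiquitin ligase. When cysteines of KEAP1 are modified by electrophiles or oxidants, NRF2 escapes degradation, pairs with a small MAF protein and binds antioxidant response elements in the promoters and enhancers of genes for glutathione synthesis, thioredoxin recycling, quinone reduction, heme breakdown and NADPH supply. Much of this control acts on the NRF2 protein, which RNA-Seq does not measure. In the kidney the pathway is best known for protecting the oxygen-consuming proximal tubule, and *Hmox1*, its heme-degrading member, is also a classical transcript of kidney injury that other factors, among them AP-1 and the repressor BACH1, act on as well.

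The promoters of the genes are shown first because the antioxidant response element is what links these genes to NRF2. RefSeq promoter windows (GRCm38.p6), each running from 250 bases before to 50 bases after an annotated start, were at hand for 8 of the 10 genes, in 10 windows of which 3 belong to *Txnrd1*. *Hmox1* and *Gclc* had no entry. Both strands were searched for the core of the element in a C form (TGACNNNGC) and a G form (TGAGNNNGC), for the AP-1 site TGANTCA, which can overlap the G form, and for the cAMP response element TGACGTCA. Of all 32817 windows of this length, 12.4% held the C form, 17.7% the G form, 7.81% the AP-1 site and 1.79% the cAMP response element. The C form lay in the windows of 5 genes (*Nfe2l2*, *Gclm*, *Txnrd1*, *Srxn1* and *G6pdx*) and the G form in those of 2 (*Srxn1* and *Slc7a11*). These counts are per gene, whereas the shares above are per window. Of the 3 windows of *Txnrd1* only the second held the C form, and each other gene had 1 window. *Srxn1* was the only gene of the 8 with an AP-1 site in its window, and none of the 8 held the cAMP response element. The windows of *Nqo1* and *Keap1* held none of these motifs. Sequence further from the start and enhancers were not searched, so a window without a match does not show that a gene lacks the element. The stretches of *Srxn1* and *Nfe2l2*, whose transcripts were higher with SK-124, are set beside those of *Gclm*, *Txnrd1* and *G6pdx*, which did not pass the test. Capitals mark the matches, and each sequence runs 5′ to 3′ on the strand of its gene.
Srxn1: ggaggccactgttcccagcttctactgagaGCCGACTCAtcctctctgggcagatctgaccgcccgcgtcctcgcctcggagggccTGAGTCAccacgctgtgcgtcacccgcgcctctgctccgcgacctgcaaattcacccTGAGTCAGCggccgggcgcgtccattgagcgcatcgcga
Nfe2l2: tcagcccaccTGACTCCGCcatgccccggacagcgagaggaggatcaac
Gclm: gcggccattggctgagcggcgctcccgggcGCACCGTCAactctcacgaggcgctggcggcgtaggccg
Txnrd1: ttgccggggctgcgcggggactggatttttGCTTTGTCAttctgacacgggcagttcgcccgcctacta
G6pdx: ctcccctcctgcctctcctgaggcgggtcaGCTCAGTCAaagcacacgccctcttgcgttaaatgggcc

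The *Srxn1* stretch (chr2:152105336-152105517, plus strand) holds a G-form core on the opposite strand that begins 158 bases before the start, an AP-1 site 102 bases before it, and an AP-1 site 45 bases before it that is also a G-form core. A C-form core of *Srxn1*, GCTAGGTCA on the opposite strand, begins 28 bases after the start. The *Nfe2l2* stretch (chr2:75704865-75704913, minus strand) has its core 240 bases before the start. The core of *Gclm* (chr3:122245393-122245461, plus strand) begins 134 bases before its start, that of *Txnrd1* (chr10:82859084-82859152, plus strand, the second of its windows) 92 bases before, and that of *G6pdx* (chrX:74428899-74428967, minus strand) 57 bases before. These matches are descriptions of the letters in the windows; binding was not measured.

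Depth was even: the expected counts, the reads that RSEM assigns to each gene, totalled 19350134 to 19771802 in the vehicle group and 19244227 to 19530313 in the SK-124 group. Levels are given as CPM, counts scaled to TMM-corrected library sizes. The groups were compared by the quasi-likelihood test of edgeR, and FDR is the p-value after Benjamini-Hochberg correction for all 14159 genes left by the filter on low counts. At an FDR under 0.05, 1536 genes (10.8%) were higher and 1917 (13.5%) were lower with SK-124, so that 44.5% of the calls were higher. Scaled to library totals only, 20.3% were higher and the median gene was at -0.12 on the log2 scale, against -0.005 with TMM. SK-124-treated mice 1 to 3 had 44.4% to 46.8% of their counts in their 10 most abundant genes, mice 4 to 6 had 38.6% to 40.2%, and the vehicle-treated mice 39.9% to 43.2%. Vehicle-treated mouse 3 stood apart from its group, with a chi-square per degree of freedom of 20.7 to 26.6 against each other vehicle-treated mouse, where the other pairs of that group gave 4.69 to 9.1. In the SK-124 group, pairs that join a mouse of 1 to 3 with a mouse of 4 to 6 gave 13.5 to 32.5, and pairs within those sets 6.02 to 17.7. The tissue was checked on markers: the 6 proximal tubule genes summed to 7380 to 8360 CPM in vehicle-treated mice and 6860 to 8760 CPM in SK-124-treated mice, with 0 of 6 called, and all 5 adrenal cortex genes averaged under 1 CPM.

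Of the 10 genes, 9 passed the filter. 3 were higher with SK-124 (*Hmox1*, *Srxn1* and *Nfe2l2*), against 10.8% of all genes tested, and 1 was lower (*Keap1*), against 13.5%. The remaining 5 tested genes, *Nqo1*, *Gclc*, *Gclm*, *Txnrd1* and *G6pdx*, did not pass the test. The median log2 fold change was 0.13 over the 9 genes and -0.005 over all genes tested, and 7 of the 9 were above 0. All 6 SK-124-treated mice lay above all 6 vehicle-treated mice for *Hmox1* and *Srxn1*, which is true of 6.32% of all genes tested. The opposite separation held for 6.65% of all genes and for none of the 9. In whole-kidney RNA a change in the number of cells that express a gene and a change in the RNA per cell cannot be told apart.

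**Figure D1:**
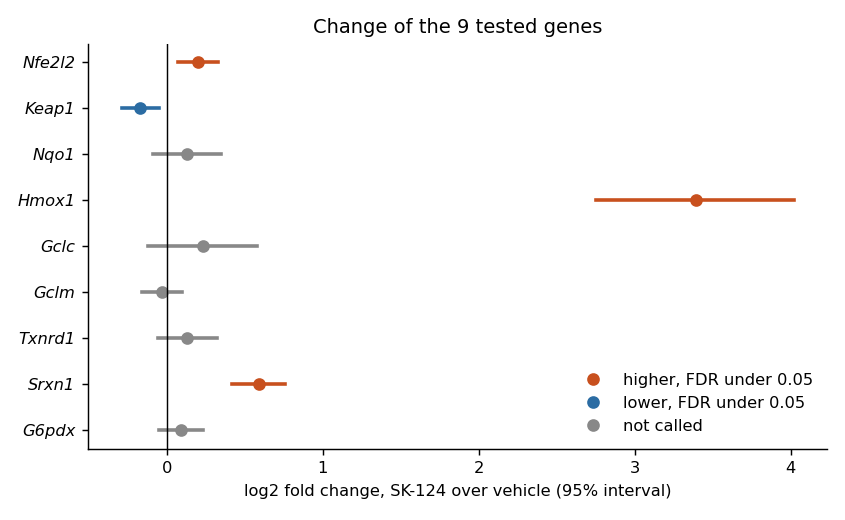
Log2 fold change of SK-124 over vehicle (x axis) with its 95% interval for the 9 tested genes (y axis), coloured by whether the FDR was under 0.05. *Hmox1* lies at 3.39 and every other gene between -0.17 and 0.59.

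Levels of different genes can be compared only per transcript length, in TPM, which corrects for length and library size. In vehicle-treated mice *Gclm*, the modifier subunit of glutamate-cysteine ligase, had the highest level, 186 ± 10.4 TPM (SD, n = 6), followed by its catalytic partner *Gclc* at 78.3 ± 7.28 TPM and by *Nfe2l2* at 29.4 ± 3.36 TPM. The ranges of these 3 genes overlapped neither each other nor those of the genes below. *Txnrd1* (21.2 TPM), *Srxn1* (17.4 TPM), *Hmox1* (14.0 TPM), *G6pdx* (13.5 TPM) and *Nqo1* (13.1 TPM) came next, and the ranges of neighbours in that run overlapped. *Keap1*, with 7.2 to 8.31 TPM, lay below all of them. *Slc7a11* was listed at 0 to 0.02 TPM in every mouse. In SK-124-treated mice *Hmox1* moved to the second place by mean level, 137 ± 109 TPM (SD, n = 6), with a range of 74.2 to 356 TPM that overlapped both *Gclm* (143 to 226 TPM) and *Gclc* (45.9 to 140 TPM). The order of the others was the same but for *Srxn1* (21.8 TPM) and *Txnrd1* (20.9 TPM), which changed places with overlapping ranges, and for *G6pdx* and *Nqo1*, both at 13.0 TPM.

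**Figure D2:**
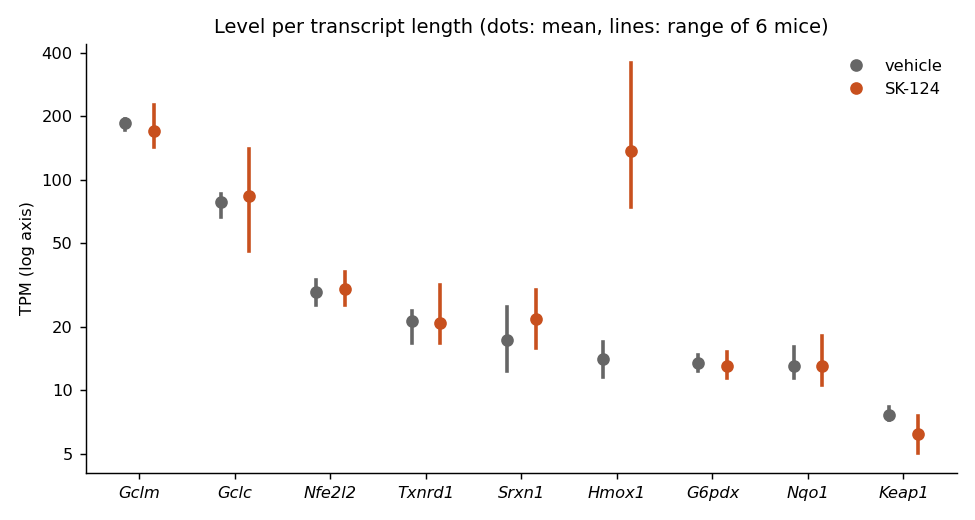
TPM (y axis, log scale) of 9 genes ordered by their vehicle mean, with dots for the mean and lines for the range of 6 mice per group. *Hmox1* is the gene whose SK-124 range (74.2 to 356) lies clear of its vehicle range (11.6 to 16.9). *Slc7a11* is left out because it was listed at 0 in some mice.

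The regulators moved little and in opposite directions. *Nfe2l2* (ENSMUSG00000015839.6, chromosome 2, 75675513 to 75704641 on the minus strand, GENCODE M21, GRCm38) had a lowest, median and highest level of 66.6, 71.7 and 75.3 CPM in vehicle-treated mice and 72.8, 82.1 and 90.7 CPM in SK-124-treated mice. 4 of the 6 SK-124-treated mice lay above every vehicle-treated mouse, and the groups overlapped. On the log2 scale it differed by 0.20 ± 0.06 (SE, FDR = 0.0272, edgeR), a fold of 1.15 (95% interval 1.05 to 1.25), with an exact permutation p of 0.0195. The call is close to the threshold. With SK-124-treated mice 1 to 3 alone (0.19, FDR = 0.0936, edgeR) or mice 4 to 6 alone (0.21, FDR = 0.0746) the call was lost. It was lost with library totals only (0.08, or 0.20 relative to the median of all genes, FDR = 0.503), on log2(TPM + 1) with limma (0.04, or 0.15 relative to the median, FDR = 0.796), and without vehicle-treated mouse 2 (FDR = 0.0503) or 4 (0.0657) or SK-124-treated mouse 2 (0.06), 4 (0.0661) or 6 (0.052).

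*Keap1* (ENSMUSG00000003308.15, chromosome 9, 21229730 to 21239361, minus strand) had 23.3, 24.7 and 27.1 CPM as lowest, median and highest values with vehicle and 20.7, 22 and 24 CPM with SK-124. 5 of the 6 SK-124-treated mice lay below every vehicle-treated mouse, and SK-124-treated mouse 5, at 24 CPM, lay within the vehicle range. On the log2 scale it differed by -0.17 ± 0.06 (SE, FDR = 0.0413, edgeR), a fold of 0.89, with an exact permutation p of 0.00649. With DESeq2 the FDR was 0.0635 and with no filter on low counts 0.0906. Of the 12 fits that each left out 1 mouse, 5 kept the call. It was lost without SK-124-treated mouse 2 (FDR = 0.0847), 3 (0.08), 4 (0.061) or 6 (0.0948) and without vehicle-treated mouse 1 (0.0528), 2 (0.1) or 4 (0.0755). An antisense gene, Gm16754, overlaps *Keap1*, with a mean of 0.0117 TPM, and whether strand was used in counting is not given in the sources used here.

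**Figure D3:**
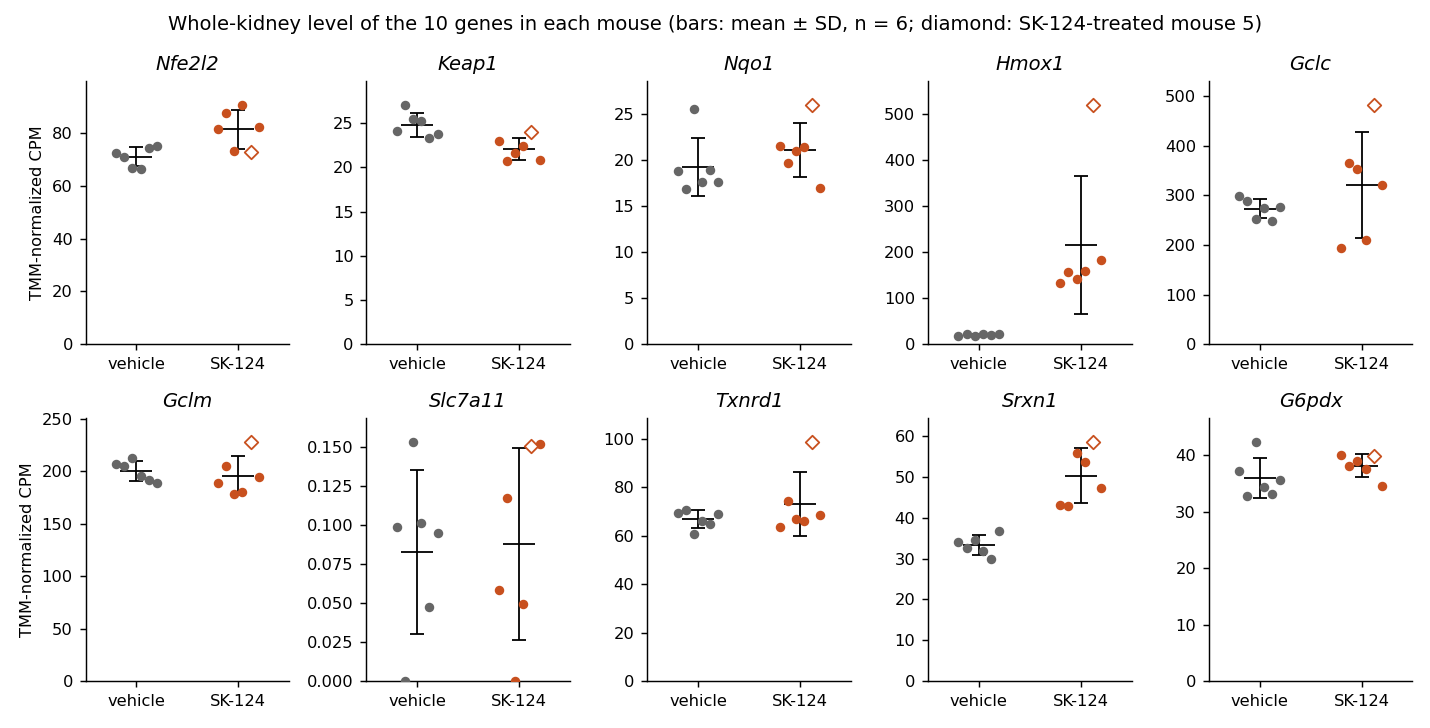
TMM-normalized CPM (y axis, from 0) of each of the 10 genes in every mouse by group, with the mean and SD of 6 mice as black bars and SK-124-treated mouse 5 as an open diamond. The groups are apart for *Hmox1* and *Srxn1*, and mouse 5 stands at 519 CPM for *Hmox1*.

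*Hmox1* (ENSMUSG00000005413.8, chromosome 8, 75093621 to 75100589, plus strand, no other annotated gene overlapping) encodes heme oxygenase 1, which opens heme to biliverdin, carbon monoxide and iron. Its level was 18.8, 22.2, 18.5, 22, 19.1 and 23.1 CPM in vehicle-treated mice 1 to 6 and 133, 157, 141, 159, 519 and 183 CPM in SK-124-treated mice 1 to 6. Every SK-124-treated mouse was far above every vehicle-treated mouse, 5 of them lay between 133 and 183 CPM, and mouse 5 stood alone at 25.2 times the vehicle mean. The expected counts behind these values were 362 to 488 per vehicle-treated mouse and 2302 to 10369 per SK-124-treated mouse. On the log2 scale it differed by 3.39 ± 0.30 (SE, FDR = 2.54e-07, edgeR), a fold of 10.4 with a 95% interval of 6.75 to 16.2. The exact permutation p was 0.00216, the smallest that 6 mice against 6 can give. Without mouse 5 the log2 fold change was 2.91 (FDR = 3.76e-12), and the mean of the other 5 was 155 ± 19.1 CPM (SD, n = 5). SK-124-treated mice 1 to 3 alone gave 2.80 and mice 4 to 6 alone 3.80 against all vehicle-treated mice.

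*Hmox1* is known to be abundant in macrophages that take up red blood cells, and free heme is an inducer of the gene. Markers of macrophages and of red blood cells were therefore read beside it. Of 7 macrophage markers, 6 were tested, 0 were higher and *Cd68* was lower with SK-124. Their summed level was 64.8 to 85.5 CPM with vehicle and 68.0 to 85.7 CPM with SK-124, with mouse 5 at 82.8 CPM. *Cd163*, which marks the heme-scavenging macrophages, averaged under 1 CPM. The 5 red blood cell genes summed to 457 to 1260 CPM with vehicle and 547 to 784 CPM with SK-124, with mouse 5 at 693 CPM and 0 of 5 called. These transcripts do not measure free heme. The part of macrophages or of heme in the level of *Hmox1* was not tested.

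By the Pearson correlation of log2(CPM + 0.5) over all 12 mice, the genes most like *Hmox1* were *Polr3d*, a subunit of RNA polymerase III (r = 0.978), *Mt2*, a metal-binding metallothionein (0.975), *Glul*, glutamine synthetase (0.975), *Eif4ebp3*, a member of the family that restrains cap-dependent translation (0.973), and *Arg2*, the mitochondrial arginase (0.971). All 12 points share the treatment contrast, and each of these genes was itself higher with SK-124, by 0.95 to 4.03 on the log2 scale. Among SK-124-treated mice, mouse 5 was the highest for 4 of the 5: *Mt2* (239 CPM against at most 150 CPM in the others), *Glul* (870 against 843), *Polr3d* (19.5 against 16.4) and *Arg2* (11.3 against 9.36). For *Eif4ebp3* it was at 101 CPM, and the highest of the others at 102 CPM. The correlation that picked these 5 genes was taken over the same 12 mice, with mouse 5 the extreme for *Hmox1*. A high mouse 5 in these genes is therefore partly a product of that choice.

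*Nqo1* (ENSMUSG00000003849.8, chromosome 8, 107388225 to 107403206, minus strand) encodes the quinone reductase that is often read as the reporter of NRF2 activity. Its lowest, median and highest levels were 16.9, 18.2 and 25.5 CPM with vehicle and 16.9, 21.2 and 26.0 CPM with SK-124. The groups covered the same range, with vehicle-treated mouse 3 and SK-124-treated mouse 5 at the top of each. The difference was 0.13 on the log2 scale (95% interval -0.09 to 0.35, FDR = 0.407, edgeR), and -0.02 on log2(TPM + 1) with limma. Without vehicle-treated mouse 3 it was 0.23 (FDR = 0.0552). The interval leaves room for a change of up to 1.28-fold and does not include one of the size of *Hmox1*.

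Of the glutathione synthesis genes, none passed the test. *Gclc* (ENSMUSG00000032350.9, chromosome 9, 77754535 to 77794485, plus strand) encodes the rate-limiting catalytic subunit. Its level was 249, 275 and 298 CPM (lowest, median, highest) with vehicle, and 194, 366, 352, 209.5, 482 and 320 CPM in SK-124-treated mice 1 to 6. The SK-124-treated mice fell on both sides of the vehicle range, 4 above it and 2 below it, and none within it. The coefficient of variation was 7.12% with vehicle and 33.5% with SK-124. The difference was 0.23 on the log2 scale (95% interval -0.12 to 0.58, FDR = 0.346, edgeR), with an exact permutation p of 0.465, and 0.08 without mouse 5. The mice below the range were mouse 1, of the set 1 to 3, and mouse 4, of the set 4 to 6. Against all vehicle-treated mice, those sets gave 0.16 and 0.31 on the log2 scale. The part of the share of counts in the most abundant genes, which differed between the sets, in the spread of *Gclc* was not tested.

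*Gclm* (ENSMUSG00000028124.15, chromosome 3, 122245557 to 122270732, plus strand), whose product lowers the amount of glutamate that the ligase needs, was at 189, 201 and 213 CPM with vehicle and 179, 192 and 229 CPM with SK-124. Its log2 fold change was -0.03 (95% interval -0.16 to 0.10, FDR = 0.764, edgeR), the smallest of the 9. *Gclm* shares its strand and part of its span with the pseudogene Gm6061 (mean 0.522 TPM), and its expected counts were not whole in 11 of the 12 mice. How the reads of that overlap were assigned was not tested. *Slc7a11* (ENSMUSG00000027737.10, chromosome 3, 49892526 to 50443614, minus strand), the cystine importer that supplies cysteine for glutathione, had 0 to 3 counts in every mouse and 10 counts in all in each group. It did not pass the filter on low counts, and a difference was not detectable at this depth.

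*Srxn1* (ENSMUSG00000032802.8, chromosome 2, 152105516 to 152111376, plus strand, no other annotated gene overlapping) encodes sulfiredoxin, which repairs over-oxidized peroxiredoxins. Its lowest, median and highest levels were 30, 33.4 and 36.9 CPM with vehicle and 43.0, 50.4 and 58.7 CPM with SK-124. The groups did not overlap, and mice 3, 4 and 5 were the highest. On the log2 scale it differed by 0.59 ± 0.08 (SE, FDR = 3.78e-05, edgeR), a fold of 1.51 (95% interval 1.34 to 1.70), with an exact permutation p of 0.00216. It stayed between 0.54 and 0.63 with each mouse left out, and all 12 of those fits kept the call. In TPM the difference was smaller and was not called. On log2(TPM + 1) it was 0.31 (FDR = 0.19, limma), or 0.42 relative to the median of all genes, which lay at -0.11 on that scale. The TPM ranges overlapped, 12.4 to 24.8 with vehicle and 15.9 to 30 with SK-124. The effective length that RSEM used for *Srxn1*, which has 3 annotated transcripts, varied from 1461 to 2244 bases among vehicle-treated mice and from 1646 to 2258 bases among SK-124-treated mice, whereas that of *Hmox1* stayed between 1351 and 1367 bases. The part of this length in the TPM result was not tested.

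*Txnrd1* (ENSMUSG00000020250.10, chromosome 10, 82833951 to 82897712, plus strand), cytosolic thioredoxin reductase, had 60.5, 67.7 and 70.8 CPM as lowest, median and highest values with vehicle and 63.5, 67.8 and 98.8 CPM with SK-124. The medians were nearly equal, and the highest value was again that of mouse 5, with the next at 74.5 CPM. The difference was 0.13 on the log2 scale (95% interval -0.06 to 0.32, FDR = 0.333, edgeR) and 0.02 without mouse 5. On log2(TPM + 1) with limma it was -0.05. *G6pdx* (ENSMUSG00000031400.10, chromosome X, 74409483 to 74429194, minus strand), the first enzyme of the pentose phosphate pathway and a main source of NADPH, had 32.9, 35.0 and 42.4 CPM with vehicle and 34.6, 38.6 and 40 CPM with SK-124. Its log2 fold change was 0.09 (95% interval -0.05 to 0.23, FDR = 0.381), and it was -0.03 with library totals only and -0.05 on log2(TPM + 1). The opposite strand of *G6pdx* carries *Ikbkg* (mean 3.36 TPM), and how reads of this overlap were assigned is not given in the sources used here.

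Across the 9 genes, SK-124-treated mouse 5 was the highest of the 12 mice for 6: *Nqo1*, *Hmox1*, *Gclc*, *Gclm*, *Txnrd1* and *Srxn1*. It was the highest mouse for 8.51% of all genes tested. It was not highest for the regulators, where *Nfe2l2* was at 72.8 CPM, 1.02 times the vehicle mean, and *Keap1* at 0.969 times. Relative to the vehicle mean, the mouse stood at 1.76-fold for *Gclc* and *Srxn1*, 1.48-fold for *Txnrd1*, 1.35-fold for *Nqo1* and 1.14-fold for *Gclm*. Its total of expected counts, 19445016, and its share of counts in the 10 most abundant genes, 38.6%, the lowest of the 12, are given beside this; their part in the pattern was not tested. Without it, 3 genes were still higher and 1 lower.

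**Figure D4:**
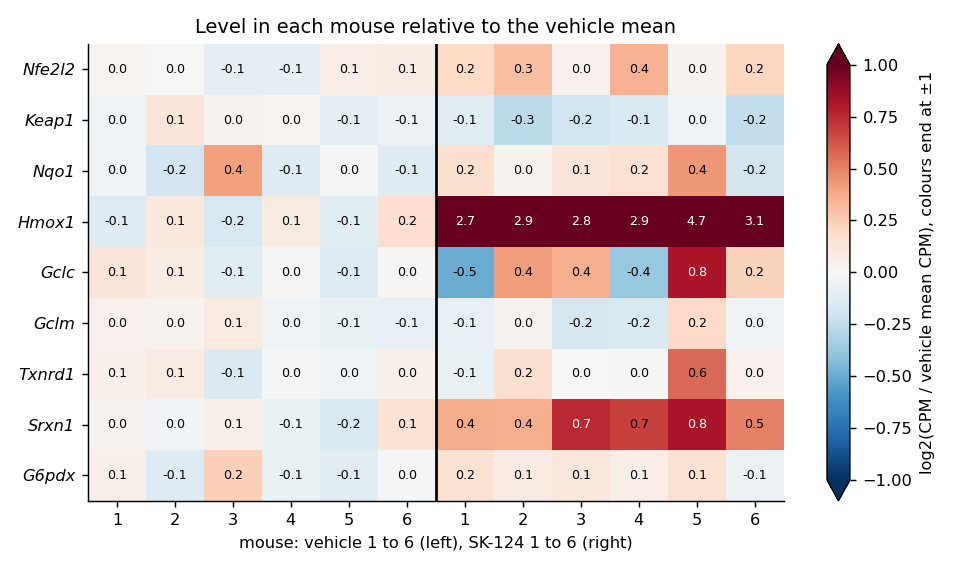
Log2 ratio of each mouse's CPM to the vehicle mean (colour, ending at ±1, with the value written in each cell) for 9 genes (rows) in the 6 vehicle-treated and 6 SK-124-treated mice (columns). The row of *Hmox1* is dark in all 6 SK-124-treated mice, and the column of SK-124-treated mouse 5 holds the highest value of 6 rows.

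Other genes of the pathway and of neighbouring pathways, among them that of ATF4, were read as 8 lists with 92 genes in all. Of these pathway genes, 87 were tested. 18 were higher with SK-124, against 10.8% of all genes, and 2 were lower, against 13.5%. Their median log2 fold change was 0.08, and 68 of 87 were above 0, against 6931 of all 14159 genes. The lists were chosen with earlier results of these data known, so these shares describe the lists and do not test the pathway. With library totals only, which put the median gene at -0.12, 13 were higher and 7 lower. With limma on log2(TPM + 1), 9 were higher and 4 lower, and without vehicle-treated mouse 3, 24 and 4. Without SK-124-treated mouse 4 or 5, 4 were lower as well.

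Of the 12 partners and regulators of NRF2, 4 were higher and 0 lower. The largest changes were in the small MAF proteins that pair with NRF2 or with its rival BACH1. *Maff* went from 1.15 ± 0.345 to 8.01 ± 2.05 CPM (SD, n = 6), or 2.80 ± 0.20 (SE) on the log2 scale (FDR = 1.9e-08, edgeR), and *Mafk* from 13.8 ± 1.75 to 25.7 ± 3.04 CPM, 0.90 (FDR = 1.54e-06). Neither overlapped between groups. The third small MAF, *Mafg*, was at 0.12 (FDR = 0.12) and *Cul3*, the ligase scaffold that KEAP1 recruits, at 0.05 (FDR = 0.538); both were chosen after their values were seen. *Sqstm1*, the autophagy receptor p62 that sequesters KEAP1, rose from 269 to 298 CPM with vehicle to 360 to 465 CPM with SK-124 (0.51, FDR = 1.13e-05), and *Bach2*, a repressor of the same element, from 2.63 to 4.07 CPM (0.63, FDR = 0.000544). On log2(TPM + 1) with limma the call of *Bach2* was lost (0.09, FDR = 0.514).

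Of the 14 genes of the thioredoxin and peroxiredoxin system, 3 were higher and 0 lower. These were *Sesn2* (45.5 ± 4.21 to 167 ± 13.0 CPM, log2 fold change 1.87, FDR = 5.97e-12) and *Sesn1* (8.71 to 16.8 CPM, 0.95, FDR = 3.03e-06), sestrins that also restrain mTORC1, and *Txnip* (148 ± 24.6 to 506 ± 26.8 CPM, 1.78, FDR = 3.38e-10), which binds and inhibits thioredoxin and limits glucose uptake. None of the thioredoxins or peroxiredoxins was called. *Prdx1*, a substrate of sulfiredoxin, was at 0.11 (FDR = 0.179) and *Txn1* at 0.10 (FDR = 0.285), both chosen after their values were seen.

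In the glutathione cycle, 3 of 11 tested genes were higher and 0 lower. *Chac1*, which degrades glutathione, was low in both groups, 0.198 to 0.569 CPM with vehicle and 0.501 to 1.97 CPM with SK-124, with a log2 fold change of 1.80 (FDR = 0.000764). *Gpx1*, the abundant cytosolic glutathione peroxidase, was at 0.27 (FDR = 0.0199) and *Slc3a2*, the heavy chain that partners the cystine importer and other amino acid transporters, at 0.25 (FDR = 0.0147). Both calls were lost with library totals only (0.17, FDR = 0.203 for *Gpx1* and 0.13, FDR = 0.295 for *Slc3a2*) and on log2(TPM + 1) with limma (0.12, FDR = 0.494 and 0.11, FDR = 0.544). Of 7 NADPH-producing enzymes, *H6pd*, the hexose-6-phosphate dehydrogenase of the endoplasmic reticulum, was higher (0.21, FDR = 0.0107), and *Idh1*, the cytosolic isocitrate dehydrogenase, was lower, from 191 to 220 CPM with vehicle to 143 to 177 CPM with SK-124 (-0.36, FDR = 0.00013). *Idh1* kept its call in all 24 alternatives, and *H6pd* lost it with library totals only (0.10, FDR = 0.373), on log2(TPM + 1) (0.06, FDR = 0.708) and with SK-124-treated mice 1 to 3 alone (FDR = 0.0933).

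Of 22 tested conjugation and detoxification genes, 4 were higher and 1 lower. *Akr1b8*, an aldo-keto reductase, was at 0.66 (FDR = 0.0122) with 1.32 CPM in the vehicle-treated mice, *Cyp2a5*, a cytochrome P450, at 0.59 (FDR = 0.000693), *Gsta4*, a glutathione transferase, at 0.35 (FDR = 0.019) and *Ugdh*, which makes UDP-glucuronate, at 0.18 (FDR = 0.0184). *Gsta4* was chosen after its value was seen. *Cyp2a5* belongs to a family of near-identical genes, so its counts are uncertain. On log2(TPM + 1) with limma, *Ugdh* was at -0.04 and the call of *Akr1b8* was lost (0.28, FDR = 0.0932). *Osgin1*, an oxidative stress-induced growth inhibitor, was lower without overlap, at 50.6 to 63.1 CPM with vehicle and 21.9 to 34.2 CPM with SK-124 (-1.0, FDR = 5.33e-07).

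Among the 10 heme and iron genes, 1 was higher: *Alas1*, the first enzyme of heme synthesis, with 67.9 to 105 CPM with vehicle and 109 to 222 CPM with SK-124 (0.68, FDR = 0.00316), its highest value in mouse 5. On log2(TPM + 1) with limma its call was lost (0.53, FDR = 0.0653). The constitutive heme oxygenase *Hmox2* was at -0.07 (FDR = 0.565), and ferritin heavy chain, *Fth1*, at 0.15 (FDR = 0.0856) with groups that did not overlap; these genes were chosen after their values were seen. None of the 4 genes for superoxide and peroxide removal (*Sod1*, *Sod2*, *Sod3* and *Cat*) passed the test, and their median log2 fold change was 0.08. ATF4 is a stress factor that shares targets with NRF2, among them *Slc7a11* and *Sesn2*. Of its 9 tested genes, 4 were higher and 0 lower, with a median of 0.37. Beside *Sesn2* and *Chac1* these were *Psat1*, a serine synthesis enzyme (0.48, FDR = 3.78e-05), and *Atf4* itself (0.44, FDR = 0.00115), whose call was lost on log2(TPM + 1) with limma (0.28, FDR = 0.0879). Its targets *Ddit3* (0.37, FDR = 0.173) and *Asns* (0.35, FDR = 0.123), chosen after their values were seen, did not pass the test. The symbol *Ddit3* had 2 identifiers, and the value is that of the identifier with the larger total of counts.

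**Figure D5:**
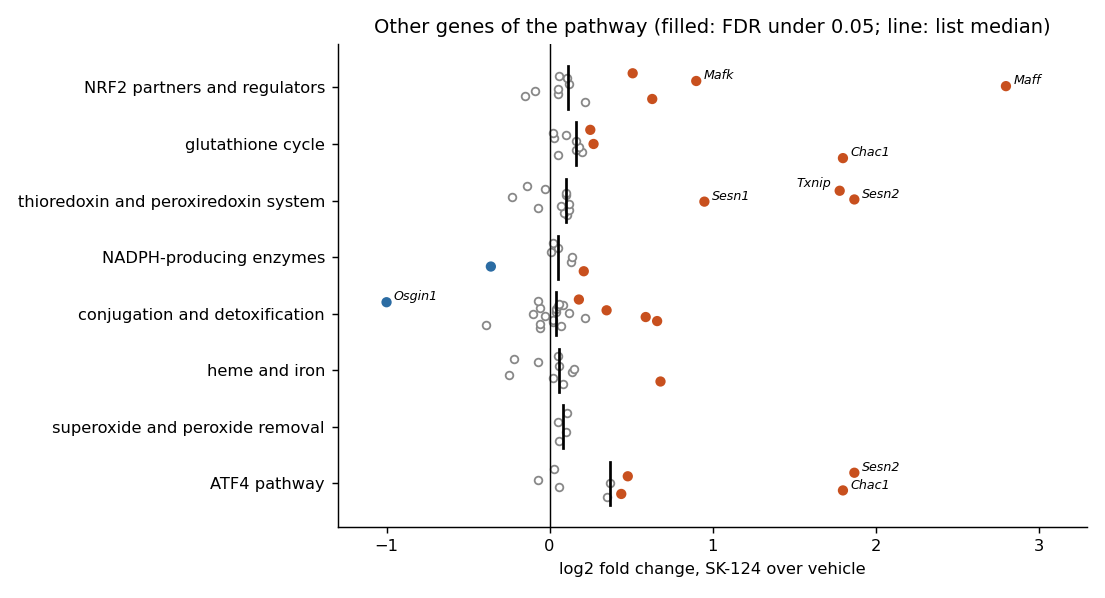
Log2 fold change of SK-124 over vehicle (x axis) of the tested genes of 8 lists (rows), filled where the FDR was under 0.05, with the list median as a black line. Most points lie near 0, and *Maff* (2.80), *Sesn2* (1.87), *Chac1* (1.80), *Txnip* (1.78) and *Osgin1* (-1.0) lie far from it.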

How the data were processed

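Reads from the BGISEQ500 were, per the labels and the submitters' processing notes, handled with FastQC, STAR 2.7.2b and RSEM 1.3.0 on mm10. DESeq2 is also named there. The authors deposited RSEM expected counts per gene and the TPM computed from them. Both were used here. Identifiers were named through GENCODE M21 (54349 of 55401 matched with their version). Expected counts were rounded, filtered with filterByExpr, scaled with TMM and tested with edgeR 4.0.16 (R 4.3.3) without a block, and TPM with limma 3.58.1. DESeq2 1.42.0 was an alternative. Two-sided exact permutation tests over 924 assignments used log2(CPM + 0.5). Standard errors and intervals (95%) come from the edgeR fit. No library was a duplicate: over 30 pairs of mice within groups, chi-square divided by its degrees of freedom was at least 4.69. The genes, lists and tests were chosen with earlier results of these data known. From each list, the genes with the 2 largest and 2 smallest log2 fold changes among those called are named.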

Additional observations from a re-analysis of the deposited data

Results flagged for a closer look

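In 6 of 56 groups of 6 mice examined (28 genes in 2 groups each), the highest mouse stood apart from the rest by Dixon's criterion at 95%. Chance would give about 2.8 if the groups were independent, but all 28 genes were measured in the same 12 mice. In 3 of the 6 groups it was SK-124-treated mouse 5, at 519 CPM for *Hmox1*, 98.8 CPM for *Txnrd1* and 222 CPM for *Alas1*. Vehicle-treated mouse 3 stood out for *Nqo1* (25.5 CPM) and *Gpx1* (1020 CPM), and vehicle-treated mouse 6 for *Psat1* (28.5 CPM). Vehicle-treated mouse 3 was the highest of the 12 mice for 17.8% of all genes tested and 23 of 87 pathway genes, and SK-124-treated mouse 5 for 8.51% and 21 of 87.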

How the results depend on the processing

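Of 216 refits of the 9 genes, 184 kept direction and side of the threshold, 24 lost the call and 8 turned direction, all 8 in genes that were not called. The calls lost were 12 of *Keap1*, 10 of *Nfe2l2* and 2 of *Srxn1*; *Hmox1* kept its call in all 24. On log2(TPM + 1) and log2(TPM + 0.1), the turned values were -0.02 and -0.02 for *Nqo1*, -0.05 and -0.05 for *Txnrd1*, -0.05 and -0.06 for *G6pdx*, and -0.04 and -0.04 for *Ugdh*, with exact permutation p of 0.894, 0.784 and 0.468 for the first 3 genes on log2(TPM + 1). Relative to the median of all genes on log2(TPM + 1), *Nqo1*, *Txnrd1* and *G6pdx* were at 0.09, 0.06 and 0.05. Library totals gave -0.03 for *G6pdx* (0.09 relative to the median), and SK-124-treated mice 4 to 6 alone gave 0.01 for *Gclm*. The cause was not tested.

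The count of genes higher among the 9 was 3, and 1 with limma on either TPM scale. It was 2 with library totals only and when either SK-124-treated mice 1 to 3 or mice 4 to 6 were kept. The count lower was 1, and 0 with DESeq2, with no filter on low counts and with the replicate block. It was also 0 when either of those sets of SK-124-treated mice was kept. Pathway genes were 18 higher and 2 lower, 9 and 4 with limma on either TPM scale, and 13 and 7 with library totals. Of 455 refits of the pathway genes named, 23 lost the call and kept the direction. These were 4 each of *Gpx1*, *H6pd* and *Slc3a2*, 3 of *Akr1b8*, and 2 each of *Alas1*, *Atf4*, *Bach2* and *Ugdh*. They arose under library totals, the TPM scales or either set of SK-124-treated mice. *Ugdh* also lost its call in the 2 refits that turned its direction, on the TPM scales. With each mouse left out, 2 to 3 of the 9 genes were higher and 0 to 1 lower, 18 to 24 pathway genes were higher and 2 to 4 lower, and 2960 to 3942 genes were called in all. SK-124-treated mice 1 to 3 alone gave 2298 calls against 3453. Replicate numbers mark different mice and were not used as pairs in the main fit. Deviations of mice with the same number correlated by -0.131 to 0.217, and shared handling of such mice was not tested. The replicate block gave 3466 calls. Nothing in the labels names a batch. Depth limits *Slc7a11* and *Chac1*.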
